A study of Mus musculus with 6 samples.

Results

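The messages described here are those of 10 surface receptors and adhesion proteins used to identify muscle stem cells: Calcr, Cxcr4, Met, Vcam1, Ncam1, Itga7, Itgb1, Cdh15, Cd34 and Cav1. They were taken by symbol from a table of read counts for 55376 genes, and all 10 were among the 18054 genes with enough counts to test. The study asked which messages the RNA-binding protein CPEB4 holds in muscle stem cells, by RNA immunoprecipitation (RIP), in which an antibody pulls a protein down with the RNA attached to it. There were 6 libraries in 3 groups of 2: CPEB4 RIP, RIP with IgG, and input, which is total RNA. All came from muscle stem cells of C57BL/6 mice aged 3 months, sorted by flow cytometry and sequenced as SMART-seq2 libraries. No genotype, treatment or group without CPEB4 is named in the labels, and neither animals nor pools are given for a library, so the spread between the libraries of a group may be technical in part.

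Muscle stem cells, or satellite cells, lie between the muscle fibre and its basement membrane, and the proteins listed here hold them there or receive signals from the niche. Integrin α7β1 binds laminin of the basement membrane, M-cadherin (Cdh15) faces the fibre, and the calcitonin receptor is a marker of quiescent cells. The published sorting protocol that the labels cite selects cells with VCAM1 on their surface and without the endothelial marker CD31 (Pecam1), the leukocyte marker CD45 (Ptprc) and Sca1 (Ly6a). CPEB proteins bind the cytoplasmic polyadenylation element in messages and regulate their translation.

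Total counts were 9018323 to 20843042 per library, and the 10 genes had from 92 counts (Cxcr4 in IgG RIP replicate 1) to 30205 (Vcam1 in input replicate 1). The 2 IgG RIP libraries stood apart from each other. Their Pearson r of log2 CPM (counts divided by library totals that are scaled by trimmed means, TMM) across the tested genes was 0.914, the lowest of any pair of libraries, against 0.989 within CPEB4 RIP and 0.982 within input. Among the 10 genes the median gap between replicates was 0.46 on the log2 scale in IgG RIP, 0.13 in CPEB4 RIP and 0.18 in input. Fits against IgG RIP were therefore repeated without each of its libraries, and calls that changed are given beside each gene. In such a fit the lone library left in a group is assumed to vary like the other groups.

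Per length, Cav1 was the most abundant of the 10 messages in every group and Vcam1 came next. FPKM, as deposited by the authors, divides a gene's fragments by its length and by a total for the library. In input Cav1 stood at 219 and 277 FPKM, Vcam1 at 134 and 129, and Itgb1 at 49.4 and 67.6. Calcr (47.6 and 41.4), Ncam1 (29.2 and 28.2), Cd34 (14.9 and 19.5) and Cdh15 (10.9 and 9.46) followed, then Met (5.50 and 5.46), Itga7 (4.71 and 4.08) and Cxcr4 (4.14 and 3.99). Only Itga7 and Cxcr4, the last neighbours in that order, had overlapping input libraries. The mean input level of Cav1 was above 99.4% of tested genes and that of Cxcr4 above 72.0%.

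The order was not the same in the precipitates. Calcr, the fourth in input, was the sixth in CPEB4 RIP at 17.8 and 16.4 FPKM, below Ncam1 and overlapping Cd34 and Cdh15. Cxcr4, the last in input and the ninth in IgG RIP, was the eighth in CPEB4 RIP at a mean of 8.57 FPKM, with both libraries above those of Met and Itga7. In IgG RIP the libraries overlapped between Itgb1 and Ncam1, Ncam1 and Calcr, Cdh15 and Cd34, Itga7 and Cxcr4, and Cxcr4 and Met.

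**Figure D1:**
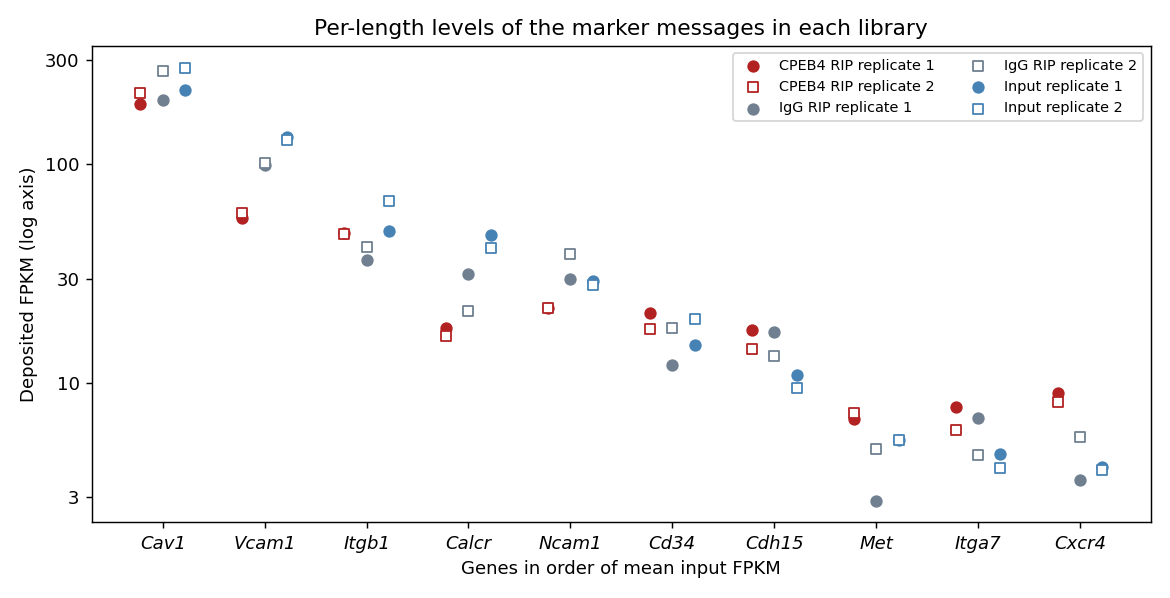
Deposited FPKM (log axis) of the 10 genes in each of the 6 libraries, with genes in order of their mean in input; filled circles are replicate 1 and open squares replicate 2. Cav1 lies between 189 and 277 in every library, and the Vcam1 values of CPEB4 RIP (56.9 and 60.1) lie under all other libraries of that gene.

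Against IgG, the comparison that the design names, Vcam1 and Ncam1 were lower in CPEB4 RIP, 0 of the 10 were higher and 8 did not pass. The test was edgeR's quasi-likelihood test with an adjusted p under 0.05, by which 8.21% of all tested genes were called, 864 higher and 618 lower, the latter 3.42% (903 and 1026 with library size as the only scaling). At an unadjusted p under 0.05, 2 of the 10 were higher and 3 lower, beside 2492 and 2346 of all tested genes. DESeq2 called 1 higher and 3 lower, and limma on FPKM called 1 lower. The median log2 fold change of the 10 was 0.06, beside -0.07 over all tested genes, with 5 above 0 and 5 below. The CPEB4 RIP and IgG RIP libraries did not overlap for 6 of the 10, beside 54.9% of all tested genes. Both calls among the 10 were lower, to be read beside the 3.42% of all tested genes called lower. Whether a count of 2 among 10 differs from that share was not tested.

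Against input, Vcam1 and Calcr were lower and 8 did not pass, where 12.7% of all tested genes were called, 1445 higher and 849 lower, the latter 4.70%. Again 0 of the 10 were higher. At an unadjusted p under 0.05, 3 were higher and 3 lower, beside 2846 and 2224 of all tested genes. DESeq2 called 1 of the 10 higher and 3 lower, and limma on log2(FPKM + 1) called 1 higher and 2 lower. The median was -0.06, as over all tested genes (-0.06). The libraries did not overlap for 9 of the 10, beside 72.1% of all tested genes, and this difference was not tested. With library size as the only scaling, 43.7% of the calls among all genes were higher, against 63.0%. The CPEB4 RIP libraries enter both of these comparisons, so they are not independent of each other. Between IgG RIP and input 0 of the 10 passed, and the share called was 0% of all tested genes. At an unadjusted p under 0.05 there were 4 of the 10 and 2550 of all tested genes, and DESeq2 called 0 of the 10 and 705 of all (3.90%). The libraries of IgG RIP and input did not overlap for 7 of the 10, beside 42.0% of all tested genes, a difference that was not tested. Without IgG RIP replicate 1, Calcr (-1.14) and Itgb1 (-0.56) passed, with 32.0% of all genes. Without replicate 2, Met (-0.87), Itga7 (0.70), Cdh15 (0.80) and Itgb1 (-0.63) passed, with 8.23% of all genes.

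The number of genes that pass depends on the libraries in the fit, and a call gained or lost for 1 of the 10 is read beside it. Against IgG the share of all tested genes called was 0.910% without CPEB4 RIP replicate 1 and 0% without replicate 2, 37.0% and 35.1% without IgG RIP replicates 1 and 2, and 4.75% and 4.45% without input replicates 1 and 2. It was 15.8% with DESeq2, 9.50% with limma on log2(FPKM + 1), 10.7% with library size alone and 2.08% with an offset for gene length. Against input the shares were 2.90% and 0.541% without CPEB4 RIP replicates 1 and 2, 38.2% and 37.6% without those of IgG RIP, and 3.05% and 3.46% without those of input. They were 19.0%, 13.3%, 13.9% and 7.53% with DESeq2, limma, library size alone and the length offset.

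**Figure D2:**
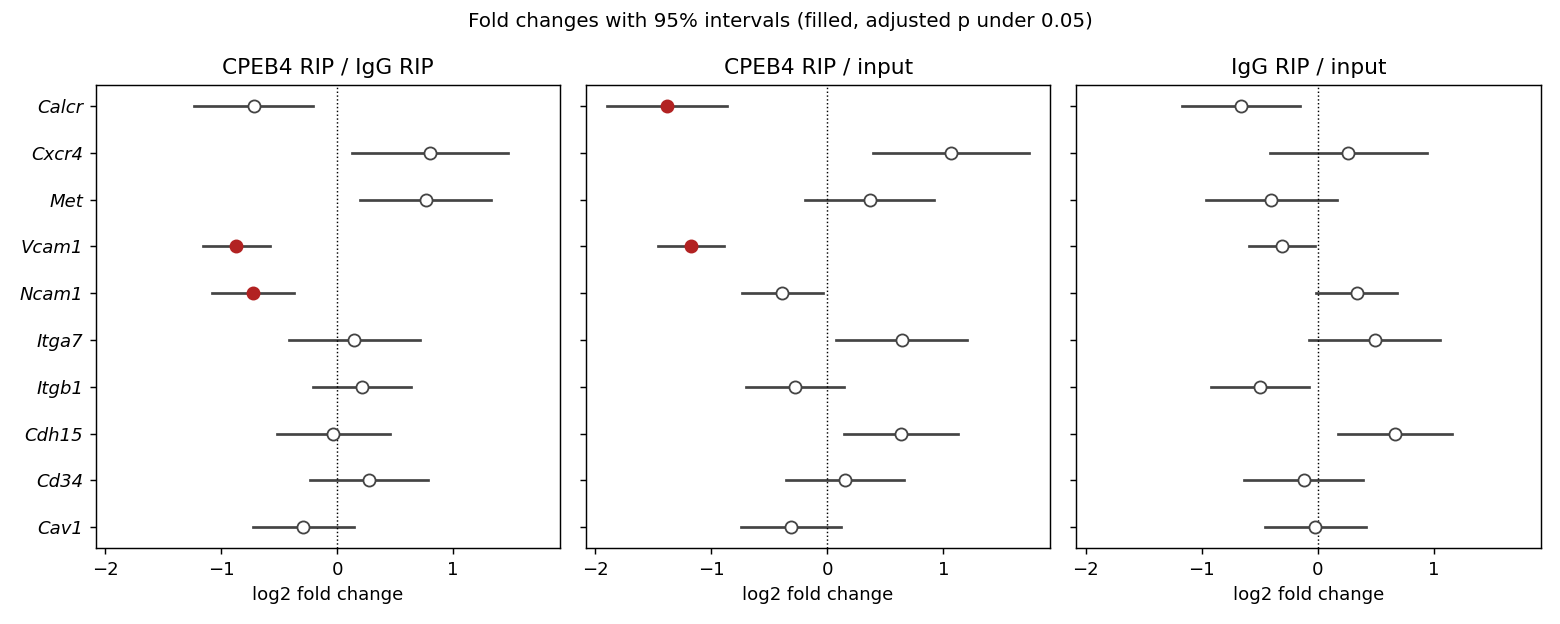
Log2 fold changes of the 10 genes in the 3 comparisons, with 95% intervals from the quasi-likelihood fit (each group n = 2); filled points have an adjusted p under 0.05. Vcam1 is filled in both comparisons of CPEB4 RIP, Ncam1 against IgG RIP and Calcr against input.

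VCAM1 and NCAM1 are adhesion proteins of the immunoglobulin family; VCAM1 is also the protein that the cited sorting protocol selects on. Vcam1 (chromosome 3, 116110020 to 116129688; positions are on GRCm38, the mm10 assembly) stood at 691 and 751 CPM with the CPEB4 antibody, 1332 and 1301 with IgG and 1643 and 1614 in input. The 3 groups were in that order with no overlap, and the replicates of each lay close together. The fit put it at -0.87 on the log2 scale against IgG (SE 0.12, adjusted p = 0.0117) and at -1.18 against input (SE 0.12, adjusted p = 0.00267), or 2.26-fold lower. Without IgG RIP replicate 1 or 2 the value against IgG was -0.67 or -0.75 and still passed. Between IgG RIP and input it was -0.31, which did not pass (adjusted p = 0.326). It no longer passed against IgG when CPEB4 RIP replicate 1 (-0.60, adjusted p = 0.227) or 2 (-0.88, 0.232) was left out, or with the length offset (-0.71, 0.0765). Against input it no longer passed when CPEB4 RIP replicate 2 was left out (-1.17, adjusted p = 0.0711).

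Ncam1 (chromosome 9, 49502129 to 49799393), which nerve, Schwann cells and activated muscle cells also express, stood at 259.98 and 269 CPM with the CPEB4 antibody, 392 and 483 with IgG and 349.7 and 343 in input. CPEB4 RIP was the lowest group and IgG RIP the highest, with no overlap among the 3. The log2 fold change was -0.73 against IgG (SE 0.15, adjusted p = 0.0318) and -0.39 against input (SE 0.15, adjusted p = 0.144). Ncam1 no longer passed against IgG when CPEB4 RIP replicate 1 (-0.49, adjusted p = 0.408) or 2 (-0.70, 0.403), IgG RIP replicate 2 (-0.43, 0.0744), or input replicate 1 (-0.59, 0.0702) or 2 (-0.58, 0.0794) was left out. Nor did it pass with the length offset (-0.58, 0.164) or with limma on log2(FPKM + 1) (-0.60, 0.0717). With library size alone the fold against input was -0.61 (adjusted p = 0.0161).

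**Figure D3:**
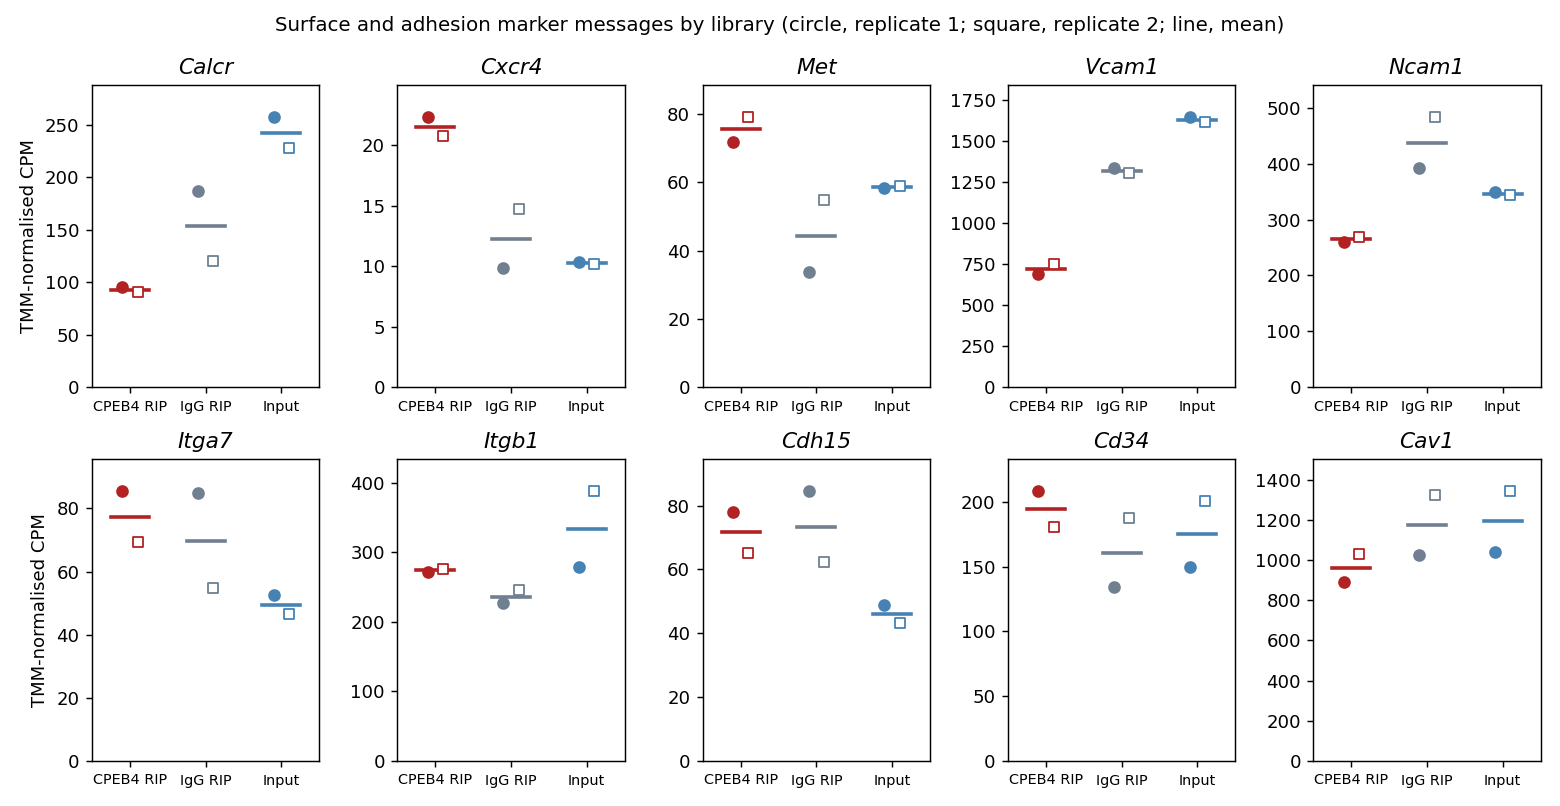
TMM-normalised CPM of the 10 genes in the 6 libraries; each panel has its own axis from 0, circles are replicate 1, squares replicate 2 and lines the mean of 2. Calcr and Vcam1 are highest in input, then in IgG RIP, then in CPEB4 RIP, without overlap, and the Cxcr4 libraries of CPEB4 RIP (22.3 and 20.7) lie above all others of that gene.

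Of the 3 receptors, Calcr had its lowest values in CPEB4 RIP and Cxcr4 and Met their highest. Calcr (chromosome 6, 3685678 to 3764713), the calcitonin receptor, stood at 95.4 and 90.4 CPM with the CPEB4 antibody, 187 and 119.8 with IgG and 257 and 228 in input. It was 2.61-fold lower than input, the widest difference of the 10 (-1.38 on the log2 scale, SE 0.22, adjusted p = 0.0089). Against IgG it was -0.72 (SE 0.22, adjusted p = 0.0863), and its 2 IgG RIP libraries were 0.64 apart on the log2 scale. With DESeq2 Calcr passed against IgG (-0.75, adjusted p = 0.0192). Without IgG RIP replicate 2 the fold against IgG was -0.87 (adjusted p = 4.27e-04), and without replicate 1 it was -0.19. Against input it no longer passed when CPEB4 RIP replicate 1 (-1.31, adjusted p = 0.0823) or 2 (-1.28, 0.129) or input replicate 1 (-1.27, 0.0815) or 2 (-1.45, 0.0529) was left out. IgG RIP itself was at -0.66 against input (adjusted p = 0.255), with no overlap.

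Cxcr4 (chromosome 1, 128588199 to 128592299), the receptor of the chemokine Cxcl12, stood at 22.3 and 20.7 CPM with the CPEB4 antibody, 9.81 and 14.7 with IgG and 10.3 and 10.2 in input. Both CPEB4 RIP libraries were above the other 4, which overlapped each other. The log2 fold change was 0.80 against IgG (95% interval 0.13 to 1.47, adjusted p = 0.127) and 1.07 against input (0.40 to 1.74, adjusted p = 0.0517). The value against input passed in 8 of 17 other settings, among them DESeq2 (1.02, adjusted p = 0.0172). Against IgG it passed without IgG RIP replicate 1 (0.72, adjusted p = 0.0356) or 2 (1.27, 8.66e-04).

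Met (chromosome 6, 17463349 to 17573980), the receptor of hepatocyte growth factor, stood at 71.9 and 79.0 CPM with the CPEB4 antibody, 33.7 and 54.9 with IgG and 58.4 and 58.9 in input. The groups did not overlap, with CPEB4 RIP on top and IgG RIP at the bottom. The log2 fold change was 0.77 against IgG (95% interval 0.20 to 1.33, adjusted p = 0.0945) and 0.36 against input (-0.20 to 0.92, adjusted p = 0.364). Met had the widest replicate gap of the 10 in IgG RIP, at 0.70 on the log2 scale. Against IgG it passed with DESeq2 (0.76, adjusted p = 0.0198) and without IgG RIP replicate 1 (0.64, 0.0144) or 2 (1.30, 1.08e-05).

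The chains of integrin α7β1, the laminin receptor, differed in where their values lay. Itga7 (chromosome 10, 128933421 to 128958286) stood at 85.5 and 69.3 CPM with the CPEB4 antibody, 84.9 and 54.7 with IgG and 52.6 and 46.5 in input. Both precipitates were above input without overlap and overlapped each other. Its log2 fold change was 0.15 against IgG (95% interval -0.41 to 0.71, adjusted p = 0.724) and 0.64 against input (adjusted p = 0.135). Against input Itga7 passed in edgeR with only the 4 libraries compared (0.60, adjusted p = 0.00963), where 43.3% of all tested genes passed. It also passed with no low-count filter (0.75, adjusted p = 0.0327), and not with DESeq2 or limma. Without IgG RIP replicate 1 the fold against IgG was 0.67 (adjusted p = 0.0110), and without replicate 2 it was -0.0015.

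Itgb1 (chromosome 8, 128685654 to 128733579), the β1 chain shared by many integrins, stood at 272 and 277 CPM with the CPEB4 antibody, 227 and 245 with IgG and 279 and 388 in input. CPEB4 RIP lay between the other groups, and input replicate 2 was well above every other library. The log2 fold change was 0.22 against IgG (95% interval -0.21 to 0.64, adjusted p = 0.478) and -0.28 against input (adjusted p = 0.354). Without IgG RIP replicate 1 or 2 the value against IgG was 0.34 or 0.41 and did not pass. Between IgG RIP and input it was -0.50 (adjusted p = 0.292). As a ratio of FPKM within a library, which no scaling changes, Itgb1 was 6.30 and 7.92 times Itga7 with the CPEB4 antibody, 5.29 and 8.89 times with IgG, and 10.5 and 16.6 times in input. Both input libraries were above the other 4. No test was run on this ratio, and between any 2 groups of 2 libraries an exact permutation test cannot go below 0.333.

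Cdh15, Cd34 and Cav1 had values in CPEB4 RIP that overlapped those in IgG RIP. Cdh15 (chromosome 8, 122848374 to 122867397), M-cadherin, stood at 78.0 and 65.2 CPM with the CPEB4 antibody, 84.6 and 62.2 with IgG and 48.9 and 43.3 in input. As for Itga7, both precipitates were above input without overlap. The log2 fold changes were -0.03 against IgG (95% interval -0.52 to 0.45), 0.63 for CPEB4 RIP against input (adjusted p = 0.0930) and 0.67 for IgG RIP against input (adjusted p = 0.240). CPEB4 RIP against input passed in edgeR with only the 4 libraries compared (0.59, adjusted p = 0.00959), where 43.3% of all tested genes passed. It also passed with no low-count filter (0.75, adjusted p = 0.0368), and not with DESeq2 or limma. The value against IgG changed sign under 8 of the 17 other settings, at most to 0.38 without IgG RIP replicate 1 (adjusted p = 0.159).

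Cd34 (chromosome 1, 194938821 to 194961292) encodes a sialomucin that endothelial and fibro-adipogenic cells carry too. It stood at 208 and 181 CPM with the CPEB4 antibody, 134 and 187 with IgG and 149.5 and 200.4 in input, so all 3 groups overlapped. The log2 fold change was 0.27 against IgG (95% interval -0.24 to 0.79) and 0.15 against input (-0.36 to 0.66). Without IgG RIP replicate 2 it was 0.67 against IgG (adjusted p = 0.0104).

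Cav1 (chromosome 6, 17306335 to 17341328), the main coat protein of caveolae, stood at 889 and 1030.2 CPM with the CPEB4 antibody, 1027 and 1326 with IgG and 1041 and 1344 in input. IgG RIP and input were nearly equal, and both CPEB4 RIP libraries lay below them, except that replicate 2 was just above IgG RIP replicate 1. Its log2 fold change was -0.29 against IgG (95% interval -0.73 to 0.14, adjusted p = 0.352) and -0.31 against input (-0.75 to 0.12, adjusted p = 0.319). Against IgG it turned to 0.041 without IgG RIP replicate 2 and to 0.02 without CPEB4 RIP replicate 1. Cav1 and Met lie 122020 bases apart on chromosome 6, with Cav2 (17281185 to 17289130) before them. The FPKM ratio of Cav1 to Met was 27.6 and 29.1 with the CPEB4 antibody, against 68.0 and 53.8 with IgG and 39.8 and 50.8 in input, so it was lower in both CPEB4 RIP libraries than in the other 4. That ratio restates the separate values of both genes given above, and a link to their positions was not tested.

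Summed, the 10 genes took 0.255% and 0.259% of all counts with the CPEB4 antibody, 0.365% and 0.358% with IgG, and 0.438% and 0.441% in input. Vcam1 and Cav1 hold most of that sum. These are shares of the RNA sequenced in each library. Recovery by the antibody, cell numbers and RNA per cell were not measured and cannot be told apart from them.

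**Figure D4:**
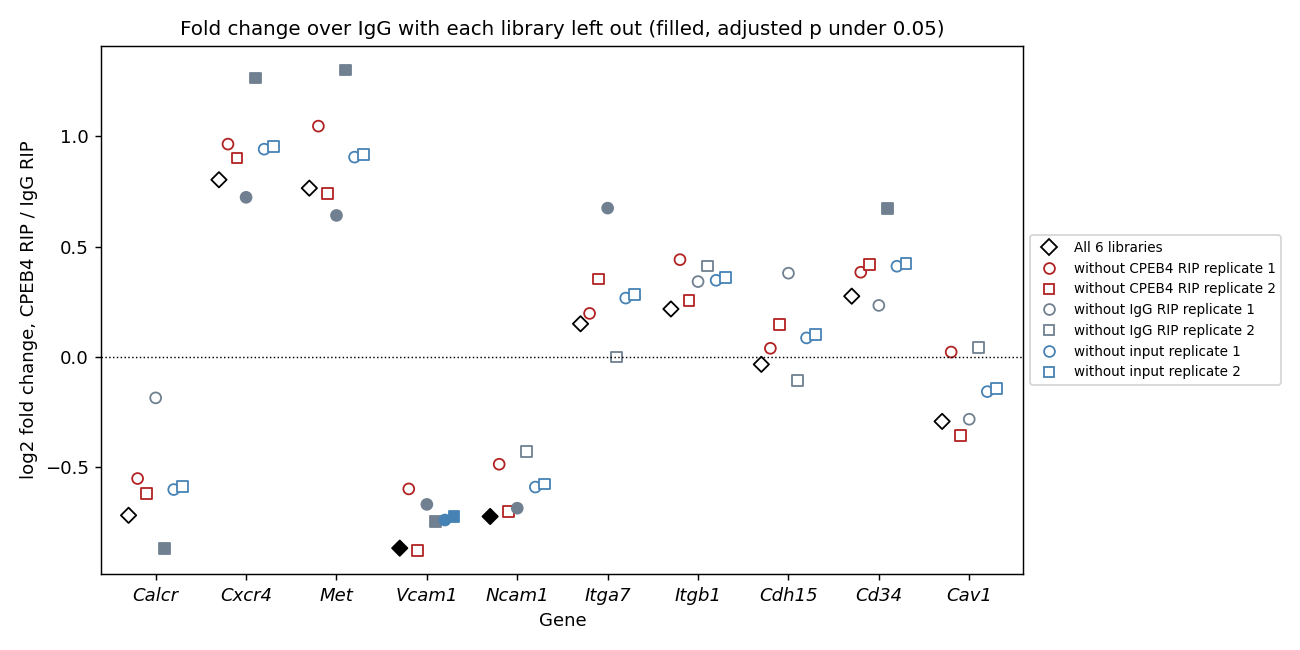
Log2 fold change of CPEB4 RIP against IgG RIP for the 10 genes, from all 6 libraries (diamonds) and with each library left out (colour and shape give the library); filled points have an adjusted p under 0.05. Vcam1 stays between -0.88 and -0.60 in all fits, and Cxcr4 and Met reach 1.27 and 1.30 without IgG RIP replicate 2.

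The gene models of the 10 differed in length. Relative to the median tested gene, the lengths were 2.29 for Vcam1, 2.23 for Ncam1, 2.09 for Itga7, 1.98 for Met and 1.88 for Cd34. These 5 are longer than 81.1% to 88.1% of tested genes. Their folds against IgG ran from -0.87 to 0.77, and the 5 shorter genes, from 0.466 for Cxcr4 to 1.05 for Itgb1, ran from -0.72 to 0.80. With the offset for length, chosen after seeing the data, 0 of the 10 passed against IgG and 2 against input by edgeR.

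For the 2 genes that passed against IgG, the genes with the most similar profile over the 6 libraries were sought among 7405 others of at least 10 CPM. The measure was the root mean square distance of centred log2 CPM. Vcam1 was nearest to Prmt7 (0.058), Slc3a2 (0.060) and Thbs2 (0.065), where the median gene was at 0.62. Ncam1 was nearest to Rrp9 (0.039) and Sde2 (0.042), with the median gene at 0.46.

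Ligands, partners and signalling genes of the 10 were counted in 9 lists, to be read beside the 8.21% and 12.7% of all tested genes called. Of 16 integrin subunits other than α7 and β1, 0 passed against IgG and 0 against input (1 each at an unadjusted p under 0.05, and 0 each with DESeq2 or limma), at medians of -0.20 and 0.05. Many of these subunits lay near the limit of counting, such as Itga3 (0 to 36 counts a library) and Itgb6 (0 to 15). Of 25 adaptors of integrins 0 were higher and 1 lower against IgG (median -0.18), and 3 higher and 1 lower against input (0.05). The lower one in both was vinculin, Vcl (-1.37, SE 0.26, against IgG and -1.93, SE 0.26, against input), which links adhesions to actin. On log2(FPKM + 1), which shrinks the folds of low genes, limma gave -0.57 and -0.97 for it, and it passed in 9 of 17 other settings against IgG and 15 against input. The higher ones against input were Pxn (1.70), Zyx (1.07) and Parva (0.72), all scaffolds of the focal adhesion; Pxn went as low as 1.02 in the other settings. Of 17 basement membrane genes 1 was higher and 1 lower against IgG (median -0.10), and 2 and 1 against input (0.24). Lama2, the laminin chain that integrin α7β1 binds in muscle, was the lower one in both, at 61.8 and 55.8 CPM with the CPEB4 antibody, 94.9 and 106 with IgG and 112 and 101 in input (-0.77, SE 0.16, adjusted p = 0.0329 against IgG). With the length offset it was -0.41 against IgG and -0.40 against input and passed in neither. Dag1, dystroglycan, another laminin receptor, was higher in both (0.70 and 0.80), and Lamb2 against input (0.80).

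Among 13 cadherin and catenin genes α-catenin, Ctnna1, was lower in both comparisons (-1.14, SE 0.15, adjusted p = 0.00935 against IgG and -1.49 against input). Against IgG 0 others passed (median -0.24); against input Ctnnd1 (1.15) and Cdh5 (1.43) were higher (median -0.01). β-Catenin, Ctnnb1, which binds the tail of M-cadherin, stood at 139 and 149 CPM with the CPEB4 antibody, 151 and 159 with IgG and 98.5 and 135 in input, and passed in neither. Of 9 caveola genes only Cavin2 was lower against IgG (-0.83; median -0.24) and only Ehd2 higher against input (0.92; median -0.04). Cavin1, which caveolae need to form, stood at 679 and 639.7 CPM with the CPEB4 antibody, 761 and 1144 with IgG and 619.6 and 602 in input. Cav2 was at 50.9 to 64.2, 41.1 to 83.9 and 56.4 to 76.4 CPM in these groups. Neither Cavin1 nor Cav2 passed.

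The 14 genes of HGF and MET signalling held 2 higher and 1 lower against IgG (median 0.17), and 3 and 1 against input (0.30). The adaptor Grb2 (0.92 and 1.51) and the phosphatase Ptpn1 (0.70 and 0.72) were higher in both, Ptpn11 (0.99) against input, and the urokinase receptor Plaur was lower in both (-0.59 and -0.94). The ligand Hgf was near the limit of counting, with 0 to 80 counts a library. Of 13 genes of CXCR4 signalling 2 were higher and 0 lower against IgG (median 0.21), and 5 and 2 against input (0.23). Gnai2, a G protein subunit through which Cxcr4 signals, had the widest rise of that list, from 69.4 CPM in IgG RIP and 69.5 in input to 279 in CPEB4 RIP (2.01 in both, SE 0.18). The receptor kinase Grk2 was higher in both too (1.38 and 1.75), while Gnai1 (1.61) was higher and Gnai3 (-0.68) lower against input. The ligand Cxcl12 stood at 74.2 and 53.0 CPM with the CPEB4 antibody, 41.1 and 52.0 with IgG and 33.3 and 33.0 in input (0.94 against input, adjusted p = 0.0367). Ackr3, the other receptor of Cxcl12, stood at 673 and 714 CPM with the CPEB4 antibody, 885 and 709 with IgG and 989 and 1189 in input (-0.65 against input, adjusted p = 0.0399).

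Of 12 ligands and partners listed for the calcitonin receptor 1 was higher against IgG (median 0.31) and 3 against input (0.72), with 0 lower in either. Prkaca, a catalytic subunit of protein kinase A, was higher in both (1.41 and 1.66). The collagen V genes Col5a1 (1.34) and Col5a3 (1.13), whose product is a ligand of the receptor, were higher against input, while Calcr itself was lower. Neither collagen gene passed against IgG. Col5a1 stood at 61.3 and 56.3 CPM with the CPEB4 antibody, 46.8 and 52.2 with IgG and 26.9 and 19.3 in input. The accessory protein Ramp1 was at 0.43 to 4.10 CPM and did not pass. Of 13 partners of NCAM and of the CD34 family 2 were higher against IgG (median 0.04) and 3 against input (0.61), namely Fgfr1 (0.81 and 0.61) and the kinase Fyn (1.10 and 1.20), which NCAM signals through, and Podxl (1.49, as low as 0.72 in other settings), a relative of Cd34, against input. Itga4, a chain of the VCAM1 receptor, was at 0.33 to 2.13 CPM and did not pass. Across these lists, some genes named as called passed against input alone. Among those, Lamb2, Ehd2, Cdh5, Ctnnd1, Podxl and Ackr3 had CPEB4 RIP libraries that overlapped IgG RIP, and the others did not.

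Named calls in these lists numbered 13 against IgG, and all kept their direction in each other setting. Without CPEB4 RIP replicate 2 the count still past the test was 0, without replicate 1 it was 3, and without either input library 8; it was 12 and 13 without IgG RIP replicates 1 and 2, and 3 with the length offset. Against input 28 were named, with Ly6a among them, and 1 and 4 were left without CPEB4 RIP replicates 2 and 1, 9 and 6 without input replicates 1 and 2, and 23 with the length offset.

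Markers of stem cells and of other cells were all present. Pax7, the defining factor of satellite cells, stood at 265 to 290 CPM with the CPEB4 antibody, 189 to 282 with IgG and 151 to 174 in input. Stem cell markers had 1 of 10 higher against IgG and 4 of 10 against input (7 with DESeq2, 1 with limma), beside 8.21% and 12.7% of all tested genes called. Their sums were 62823 to 68659 CPM with the CPEB4 antibody, 60095 to 61335 with IgG and 44652 to 45922 in input, and most of each was Sdc4 alone (57499.9 and 61956, 56836 and 52783, and 41597 and 41846 CPM). Without it the list spans low levels too, such as Sdc3 at 0.98 to 17.8 and Notch3 at 22.6 to 59.4 CPM. Of the genes the sort excludes, Ptprc was at 10.2 CPM in IgG RIP replicate 2 and at most 3.48 in the others, and Pecam1 was at 32.7 to 53.2. Ly6a was at 65.1 and 42.0 CPM with the CPEB4 antibody, 30.1 and 24.2 with IgG and 21.6 and 27.9 in input (1.11 against input, SE 0.28, adjusted p = 0.0387). Endothelial markers, whose cells share Cd34 and Cav1, had 1 of 10 higher against IgG and 2 higher and 1 lower against input, with summed levels of 473 to 709 CPM with the CPEB4 antibody, 338 to 473 with IgG and 372 to 412 in input. Fibro-adipogenic markers had 2 of 9 and 3 of 9 higher (4 each with DESeq2), with sums of 1987 to 2601, 1645 to 2191 and 1236 to 1344 CPM. Among them Dcn (177 to 792 CPM), Col3a1 (345 to 809) and Gsn (414 to 791) stood above Pax7 in each of the 6 libraries. The rest of that list, such as Pdgfra (1.07 to 4.89) and Lum (8.59 to 30.7), stood below Pax7, except Col1a1 in CPEB4 RIP replicate 1. The stem cell markers Myod1 (750 to 1025 CPM) and Myf5 (1172 to 4794) stood above Dcn, Col3a1 and Gsn in each library. Schwann cell markers, beside Ncam1, had 0 of 8 past the test against IgG (1 at an unadjusted p under 0.05, 1 with DESeq2) and 1 of 8 higher against input. Their sums were 368 to 403, 335 to 401 and 388 to 422 CPM. Myofibre markers had 4 of 8 and 3 of 8 higher, at sums of 201 to 259, 117 to 149 and 124 to 186 CPM, and erythroid markers 3 of 5 in both, at 328 to 658, 88.0 to 147 and 109 to 179 CPM. Leukocyte markers had 1 of 9 higher in each comparison with CPEB4 RIP. Their sums did not overlap between CPEB4 RIP (111 and 117 CPM) and IgG RIP (53.1 and 85.5) or input (45.1 and 66.3). The same held for the sums of stem cell, myofibre and erythroid markers, and for endothelial markers, though narrowly against IgG. Most of the leukocyte sum was Lyz2, Cd74 and S100a8, while Csf1r and Cd3e were at most 2.77 CPM. Pericyte markers had 0 of 8 against IgG (2 at an unadjusted p under 0.05, 1 with DESeq2, 0 with limma) and 1 of 8 higher against input (634 to 1087 CPM). None of these lists had a gene at 0 in all libraries, and their part in the values of the 10 genes was not tested.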

How the data were processed

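The values are deposited raw counts per gene, which the authors made with HISAT2 and featureCounts on mm10, per the submitters' processing notes, and deposited FPKM, used for levels per length; the annotation, the strand setting, the handling of reads with several matches and the total behind the authors' FPKM are not stated in the sources. Genes were kept by filterByExpr (minimum count 10, minimum total 15), scaled by TMM and fitted with group as the only term over all 6 libraries in edgeR 4.0.16 (R 4.3.3; glmQLFit and glmQLFTest, 3 residual degrees of freedom). Tests were two-sided with Benjamini-Hochberg adjustment over all 18054 tested genes and a threshold of 0.05. The SE is the absolute log2 fold change over the square root of F. Alternatives used DESeq2 1.42.0 and limma 3.58.1. Reads carry no molecular identifiers and are not independent molecules, so depth bounds counting error only, which is part of the error.

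All 10 symbols matched the RefSeq table on GRCm38. The members and lists were chosen with earlier results of these data known. Text names all members; per list, up to 4 genes with the smallest p that passed; and fixed ligands, partners and sort markers. Relative gene length is the ratio of counts to FPKM. The reference tables used here hold no messages or proteins, so no sequence is printed. One neighbour in the comparison of profiles is not reported here.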

Additional observations from a re-analysis of the deposited data

How the results depend on the processing

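Of the 10 genes, 2 passed against IgG. With a fold minimum of 2 there were 0, with DESeq2 4, with limma on log2(FPKM + 1) 1, on log2(FPKM + 0.1) 1, with the length offset 0, and 0 to 5 with a library left out. Against input the count of 2 became 4 with library size alone, 5 with no low-count filter, 4 with DESeq2, 6 with only the 4 libraries compared, and 0 to 6 with a library left out. Between IgG RIP and input the 0 became 0 to 4 with a library left out. Of all tested genes, 1482 passed against IgG, 2428 with no filter, 2853 with DESeq2, 973 with the 4 libraries, 375 with the length offset and 0 to 7710 with a library left out. Against input 2294 passed, 7340 with the 4 libraries, 1359 with the offset and 117 to 7966 with a library left out. Between IgG RIP and input 457 passed with no filter, 705 with DESeq2, 1 and 5 with limma (pseudocounts 1 and 0.1), and 0 to 6657 with a library left out.

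The replicate number as a block in edgeR gave 3 of the 10 against IgG (Calcr added, adjusted p = 0.0416) and 3 against input (Cdh15 added, adjusted p = 0.04). The shares of all tested genes rose too, to 10.2% against IgG from 8.21% and to 14.5% against input from 12.7%. For IgG RIP against input the block gave 0 of the 10, where 25 of all tested genes passed. The labels do not state that the numbers pair libraries, so the main fit had no block. Same-numbered libraries correlated in their deviations at 0.12, -0.03 and 0.08 for the 3 pairs of groups. Counting error lowers such correlations over all tested genes, so they cannot decide whether the libraries were paired.

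Values near 0 changed sign. Cdh15 against IgG became 0.062 with no filter and 0.062 and 0.066 with limma. With a library left out it ran from -0.11 to 0.38, Itga7 against IgG from -0.0015 to 0.67, Cav1 against IgG from -0.36 to 0.041, Cd34 against input from -0.025 to 0.40, and, for IgG RIP against input, Cxcr4 from -0.14 to 0.40 and Cav1 from -0.31 to 0.044. Cd34 against input was -0.050 with library size alone, which moved the median of all genes by -0.22. In IgG RIP against input, Cd34 was 0.027 and Cav1 0.14 with the offset, and Cav1 0.013 with no filter. The cause was not tested. Of the other values for the 10, 434 kept direction and side of the threshold, 41 passed where they had not and 16 ceased to pass.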
